A study of Mus musculus with 8 samples.

Results

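The BAF complex (the mammalian SWI/SNF chromatin remodeller) exchanges several of its subunits for close relatives when embryonic stem cells become neural cells. The 10 genes described here are the 5 pairs of relatives taking part in that exchange, *Smarca4* and *Smarca2*, *Smarcc1* and *Smarcc2*, *Smarcd1* and *Smarcd3*, *Actl6a* and *Actl6b*, and *Phf10* and *Dpf1*. They were chosen by gene name from the 24849 genes of the expression tables, and all 10 were found. The first gene of each pair is called the stem-cell form and the second the neural form, as textbooks assign them.

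RNA was sequenced from mouse embryonic stem cells (mESCs) of the MPI-II line, a line of 129S2/SvPas origin, either wild type or *Pcgf5*-/-. *Pcgf5* encodes a subunit of the polycomb repressive complex PRC1, and it was disrupted with TALENs aimed at its second exon, after which single colonies were picked, so that effects of the genotype and of the picked clone cannot be told apart. At day 0 both genotypes grew on feeder cells with serum, leukaemia inhibitory factor and the 2i inhibitors, and at day 6 they had been differentiated towards a neural fate in N2B27 medium. There were 2 biological replicates in each of the 4 conditions, 8 samples in all, and the comparisons ask how the subunits change with differentiation and whether they change in the same way without *Pcgf5*.

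BAF complexes use the energy of ATP to move nucleosomes and thereby open or close regulatory DNA. In stem cells and dividing neural progenitors the complex carries the ATPase BRG1 (*Smarca4*), the actin-related protein *Actl6a* and the plant homeodomain protein *Phf10*. As progenitors leave the cell cycle, the last of these give way to *Actl6b* and to *Dpf1* or *Dpf3*, a change that neurons need for the growth of dendrites. The repressor REST, which binds the RE1 element, keeps neuronal genes silent in other cells, and in the known circuit the microRNAs miR-9* (now named miR-9-3p) and miR-124 act on the 3′ untranslated region (UTR) of *Actl6a* as REST is lost.

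The sequences that this circuit names are shown for the members that hold them. RE1 has a left part (CAGCACC) and a right part (GGACAG), which were searched on both strands in the promoter windows of RefSeq (build GRCm38.p6), which run from before to just after each gene's start. All 10 members had a window. Among them only *Actl6b* held the left part, which 7.14% of the 32851 promoters hold, and *Actl6b* and *Smarcc2* held the right part, which 22.2% hold. Both parts were present in the window of *Actl6b* alone of the 10, and in that of 1.73% of all promoters. This share counts the parts on either strand, in any order and at any distance within the window. The RE1 parts are in capitals in the *Actl6b* stretch (chr5:137553566-137553591, minus strand, downstream of the start of the gene, which lies on the plus strand), where 9 bases separate them, and in the *Smarcc2* stretch (chr10:128459012-128459039, minus strand, upstream of the start):
Actl6b: atCAGCACCgaggcggccGGACAGct
Smarcc2: acgcggctgtaGGACAGcggagccctcc
The mature miR-9-3p of RefSeq (GRCm38.p6) is given next with its seed, bases 2 to 8, in capitals, followed by the seed match in the 3′ UTR of *Actl6a* (build NCBIM37, which is mm9; chr3:32625546-32625571, plus strand), in capitals as well:
miR-9-3p: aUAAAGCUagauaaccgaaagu
Actl6a: tcacctcaacgtctgtAGCTTTAgta
The match AGCTTTA is present in the longest annotated 3′ UTR of 9.83% of 19915 genes. Among the members it occurs at 1 position in *Actl6a*, at 2 in *Smarcc1* and at 1 in *Smarca2*. A match describes letters only, and binding was not measured. The precursor genes of both microRNAs were listed at 0 in every sample of this polyA RNA.

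Expression is given as FPKM, fragments per kilobase of transcript scaled to the size of the library, so that levels of different genes can be set side by side. The files give no counts, but the lowest values of single-exon receptor genes fell into steps, and these put the depth at roughly 12000000 to 15700000 fragments per sample. Targeting was visible in the data at day 6. *Pcgf5* was at 4.40 ± 1.09 FPKM in wild type and 1.56 ± 0.395 in *Pcgf5*-/- at day 0, and at 7.11 ± 2.90 and 0.563 ± 0.150 at day 6 (SD, n = 2 each). The difference in log2(FPKM + 1) was -2.33 at day 6 (limma adjusted p = 0.00421), whereas the -1.07 of day 0 did not pass (adjusted p = 0.105) and the samples of the genotypes did not overlap. Within a condition the replicates correlated at 0.972 to 0.974 over the 13214 genes tested, on the log2(FPKM + 1) scale. The labelled cell states were checked by summed markers. The 10 naive pluripotency markers summed to 1540 to 1610 FPKM in the day 0 samples of both genotypes. At day 6 they summed to 97.1 and 218 in wild type but 587 and 653 in *Pcgf5*-/-. To the *Pcgf5*-/- sums of day 6 *Pou5f1* gave 228 and 254 FPKM and *Nanog* 139 and 144. From day 0 to day 6, 10 of 10 of these markers fell in wild type and 9 of 10 in *Pcgf5*-/- (limma adjusted p under 0.05). Of all genes tested 16.2% and 10.4% fell. The 10 neural progenitor markers summed to 751 and 798 FPKM in wild type at day 6 but to 325 and 334 in *Pcgf5*-/-, and the 12 neuron markers to 409 and 579 against 213 and 247. At day 0 these sums were 225 to 310 and 169 to 221, with *Vim* alone at 201 to 282 and *Stmn2* at 90 to 132. At day 6 *Vim* was at 292 and 323 in wild type and at 155 and 134 in *Pcgf5*-/-. Between the days 9 of 10 progenitor markers rose in each genotype (limma adjusted p under 0.05), beside 34.2% of all genes tested in wild type and 21.9% in *Pcgf5*-/-. Markers of the feeder fibroblasts summed to 195 to 689 FPKM at day 0, highest in *Pcgf5*-/- replicate 2, and to 14.3 to 42.3 at day 6. Between the genotypes at day 6, 10 of 10 progenitor and 5 of 11 tested neuron markers were lower in *Pcgf5*-/- (limma adjusted p under 0.05), beside 7.05% of all genes tested. Of the pluripotency markers 9 of 10 were higher, beside 9.57%. The progenitor markers *Nes* and *Sox1* were at 0 in no sample. In bulk samples, fewer cells of a type and less RNA per cell cannot be told apart.

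**Figure D1:**
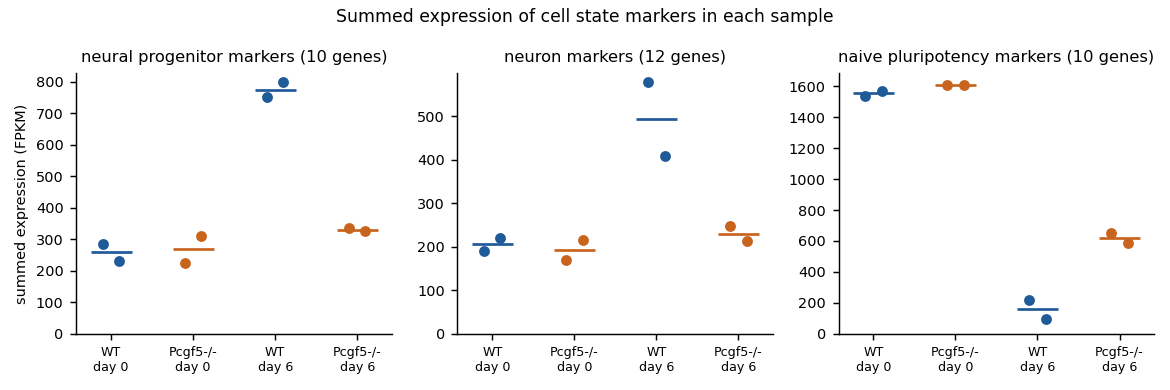
Summed FPKM of the neural progenitor, neuron and naive pluripotency markers in each of the 8 samples (points) with the mean of each condition (lines), wild type in blue and *Pcgf5*-/- in orange. At day 6 the *Pcgf5*-/- samples lie at 325 and 334 FPKM for progenitor markers against 751 and 798 in wild type, and above wild type for pluripotency markers.

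In wild type, most of the subunit genes rose, whichever form they were. Between day 0 and day 6, 3 neural forms rose (*Smarca2*, *Smarcc2* and *Actl6b*), and so did 3 stem-cell forms (*Smarca4*, *Smarcd1* and *Phf10*), while *Actl6a* was the only member of the 10 that fell. *Smarcc1*, *Smarcd3* and *Dpf1* did not pass the test. Tests were made with limma on log2(FPKM + 1) over 13214 genes, with Benjamini-Hochberg adjustment and a threshold of 0.05. The 6 of 10 members that rose stand beside 34.2% of all genes tested that rose, and the 1 that fell beside 16.2%. Genes needed a mean over 1 FPKM in at least 1 condition to be tested. *Actl6b* met this only in wild type at day 6, so its rise there was partly set by this filter. Without the filter 6 members also rose and 1 fell. The median difference of the members was 0.56, against 0.22 over all genes tested. With quantile normalization, which sets that general shift aside, 3181 genes rose and 3020 fell in place of 4522 and 2146, and the calls of the 10 members in wild type were the same.

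**Figure D2:**
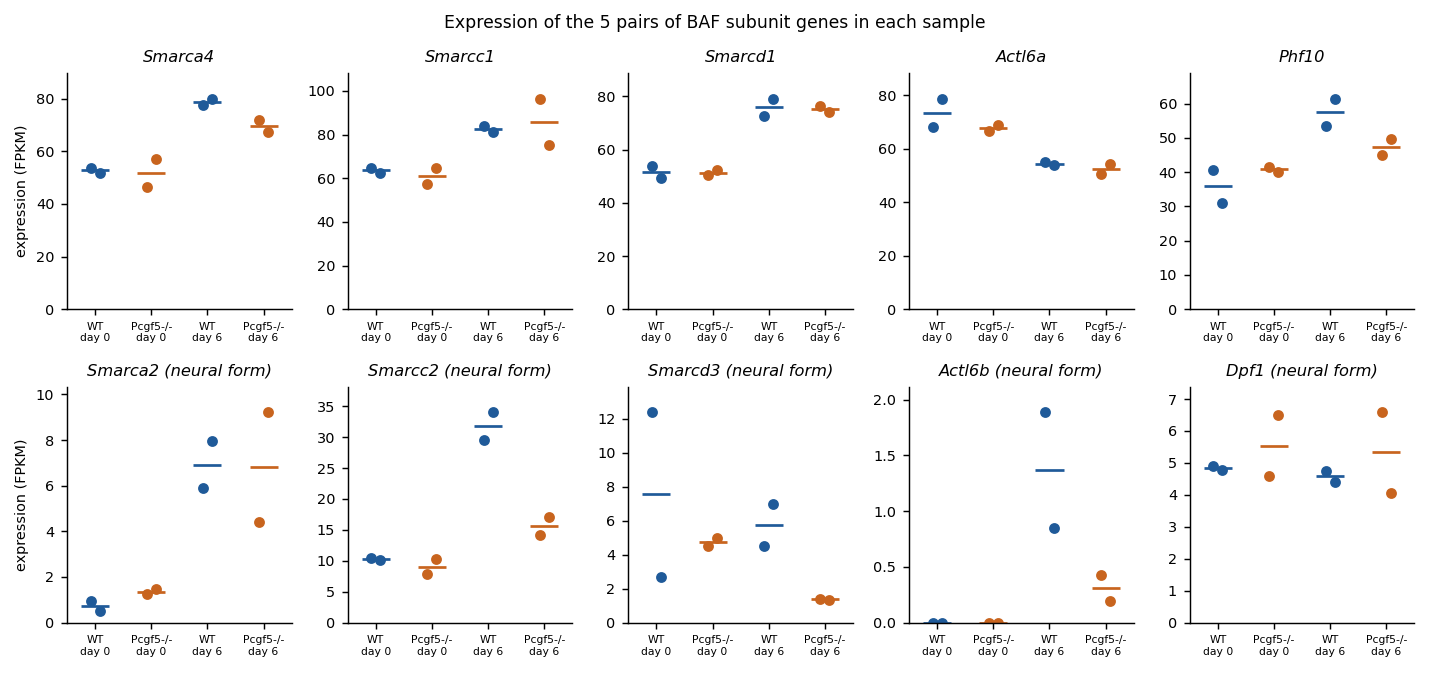
FPKM of each of the 10 genes in each sample (points) with the mean of each condition (lines), wild type in blue and *Pcgf5*-/- in orange, stem-cell forms above and neural forms below, each panel with its own linear axis from 0. *Smarcc2* at day 6 reaches 29.5 and 34.1 in wild type and 14.2 and 17.1 in *Pcgf5*-/-, and *Actl6b* is listed at 0 in all 4 day 0 samples.

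Among the ATPases, *Smarca2*, which encodes BRM (mm9 chr19:26679650-26852811), changed most. It stood at 0.939 and 0.513 FPKM in the wild-type samples at day 0 and at 5.88 and 7.97 at day 6. The *Pcgf5*-/- samples stood at 1.24 and 1.48 at day 0 and at 4.39 and 9.24 at day 6. All 4 samples of day 6 were above all 4 of day 0, and the genotypes overlapped at day 6. The ratio of the mean FPKM between the days was 9.53 in wild type and 5.01 in *Pcgf5*-/-, and the rise on the log2(FPKM + 1) scale was 2.20 ± 0.31 (SE, limma adjusted p = 0.000719) and 1.66 ± 0.31 (adjusted p = 0.00586). *Smarca4*, the partner (chr9:21420613-21508674), stood at 53.8 and 51.8 FPKM in wild type at day 0 and rose to 77.4 and 80.0 at day 6, by 0.57 ± 0.13 (adjusted p = 0.00720). It went in *Pcgf5*-/- from 46.3 and 57.1 to 71.9 and 67.4 FPKM, a rise of 0.43 ± 0.13 (adjusted p = 0.0361). That call was lost when any 1 sample of day 6, or *Pcgf5*-/- replicate 1 of day 0, was left out (adjusted p up to 0.223). BRM messenger RNA thus rose beside BRG1 messenger RNA, and *Smarca4* stayed the more abundant of the pair in all 8 samples.

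*Smarcc1* (chr9:110034528-110142682) and *Smarcc2* (chr10:127896292-127927230) encode the scaffold proteins around which the core of the complex forms, and *Smarcc2* showed the clearest difference between the genotypes. It was at 10.4 and 10.2 FPKM in wild type and at 7.83 and 10.3 in *Pcgf5*-/- at day 0. At day 6 it reached 29.5 and 34.1 in wild type but 14.2 and 17.1 in *Pcgf5*-/-, so that both *Pcgf5*-/- samples lay between the day 0 level and the wild-type level. The rise was 1.53 ± 0.18 in wild type (limma adjusted p = 0.00025), a 3.08-fold ratio of means, and 0.73 ± 0.18 in *Pcgf5*-/- (adjusted p = 0.0152), a 1.73-fold ratio. At day 6 *Smarcc2* was lower by -0.98 ± 0.18 in *Pcgf5*-/- (adjusted p = 0.0113), and its mean in wild type was 2.03 times that in *Pcgf5*-/-. The test of the difference between the 2 rises, the interaction, gave -0.80 ± 0.25 and missed the threshold (adjusted p = 0.109). Leaving out wild-type replicate 2 or *Pcgf5*-/- replicate 1 at day 6 ended the call between the genotypes (adjusted p = 0.0786 and 0.0737, with differences of -0.87 and -0.85), and leaving out *Pcgf5*-/- replicate 1 at day 0 or replicate 2 at day 6 ended that of the rise in *Pcgf5*-/- (adjusted p = 0.0937 and 0.0897).

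*Smarcc1*, in contrast, was at 64.9 and 62.2 FPKM in wild type at day 0 and at 83.7 and 81.1 at day 6, a difference of 0.37 ± 0.14 that missed the threshold (limma adjusted p = 0.0589) and passed it in 4 of 16 alternatives (adjusted p down to 0.0308). The *Pcgf5*-/- samples were at 57.2 and 64.6 and then at 96.5 and 75.1 FPKM. In these the rise of 0.48 ± 0.14 passed (adjusted p = 0.0343), but the call was lost in 8 of 16 alternatives, among them leaving out either *Pcgf5*-/- sample at day 0, *Pcgf5*-/- replicate 1 or either wild-type sample at day 6 (adjusted p up to 0.178). At day 6 the genotypes differed by 0.05 ± 0.14 (adjusted p = 0.852), and their samples overlapped.

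Of the pair that links the complex to transcription factors, *Smarcd1* (chr15:99532718-99544426) rose in both genotypes. It went from 53.7 and 49.5 to 72.6 and 79.2 FPKM in wild type and from 50.3 and 52.4 to 76.5 and 74.0 in *Pcgf5*-/-. The rises were 0.55 ± 0.11 (limma adjusted p = 0.00441) and 0.54 ± 0.11 (adjusted p = 0.00856, lost without *Pcgf5*-/- replicate 1 at day 0, where it was 0.0550). *Smarcd3*, its neural relative (chr5:24098440-24107820), is known from heart and neural development. It was at 12.4 and 2.67 FPKM in the wild-type samples at day 0, and at 4.51 and 4.99 in *Pcgf5*-/-. At day 6 it was at 4.53 and 6.99 in wild type and at 1.40 and 1.35 in *Pcgf5*-/-. The wild-type replicate 1 of day 0 stood apart from the 7 other samples, and both *Pcgf5*-/- samples of day 6 lay below all others.

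No comparison of *Smarcd3* passed the threshold as fitted. The differences were -0.08 ± 0.51 for the days in wild type (limma adjusted p = 0.913), -1.27 ± 0.51 for the days in *Pcgf5*-/- (adjusted p = 0.0876) and -1.48 ± 0.51 for the genotypes at day 6 (adjusted p = 0.0808). Without wild-type replicate 1 at day 0, the difference between the days in wild type was 0.86 (adjusted p = 0.0424), and without replicate 2 it was -1.01 (adjusted p = 0.0239), so the direction rests on 1 sample. Without that replicate 1 the interaction, -2.13, also passed (adjusted p = 0.0443). The fall in *Pcgf5*-/- and the lower level at day 6 passed without either wild-type sample of day 0 (adjusted p = 0.0073 and 0.00695 for the former, 0.0141 and 0.0139 for the latter) and in the fits of only the compared groups (adjusted p = 0.00723 and 0.0300). With quantile normalization the fall in *Pcgf5*-/- was -1.58 and also passed (adjusted p = 0.0421).

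In wild type, the actin-related subunits were the pair whose 2 forms were called in opposite directions. *Actl6b* was tested only because of its level in wild type at day 6. The filter on low values thus favoured its rise, which was also called without the filter. *Actl6a* (chr3:32607468-32625893) was at 68.1 and 78.8 FPKM in wild type and at 66.8 and 69.0 in *Pcgf5*-/- at day 0. At day 6 it was at 54.9 and 54.1 in wild type and at 50.5 and 54.4 in *Pcgf5*-/-, below every day 0 sample. It fell by 0.42 ± 0.12 on the log2 scale in wild type (limma adjusted p = 0.0183, lost without wild-type replicate 2 at day 0 or either wild-type sample at day 6, where it was at most 0.0987). The fall of 0.37 in *Pcgf5*-/- ± 0.12 was nearer the threshold (adjusted p = 0.0458) and was lost in 10 of 16 alternatives, quantile normalization among them (adjusted p = 0.0575) and also each fit without a single *Pcgf5*-/- sample or wild-type sample of day 6 (adjusted p up to 0.159). The genotypes did not pass the test at either day. The fall left *Actl6a* at 0.742 of its day 0 mean in wild type and at 0.773 in *Pcgf5*-/-, far above *Actl6b* in every sample.

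*Actl6b*, the neuronal form (chr5:137994783-138010801), was listed at 0 in all 4 samples of day 0, where 3 fragments would have given up to about 0.16 FPKM. At day 6 it was at 1.89 and 0.848 FPKM in wild type and at 0.427 and 0.197 in *Pcgf5*-/-, which corresponds to roughly 47.2, 18.9, 9.92 and 3.77 fragments. No fold change against day 0 can be given. The rise passed in wild type (limma adjusted p = 0.00299) and not in *Pcgf5*-/- (adjusted p = 0.233). At day 6 the wild-type mean was 4.40 times that of *Pcgf5*-/-, and the difference of -0.82 ± 0.23 passed (adjusted p = 0.0441), while the interaction did not (adjusted p = 0.181). The day 6 call between the genotypes was lost in 9 of 14 alternatives, among them a pseudocount of 0.1 (adjusted p = 0.0696), no filter on low values (adjusted p = 0.0644) and each fit that left out 1 sample of day 0 or 1 *Pcgf5*-/- sample of day 6 (adjusted p up to 0.171). *Actl6b* passed the filter on low values, a mean over 1 FPKM in some condition, only through wild type at day 6, so it had to be higher there. Without wild-type replicate 1 at day 6 it was not tested.

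Of the plant homeodomain subunits, *Phf10* (chr17:15082000-15098237) was at 40.6 and 31.1 FPKM in wild type at day 0 and rose to 53.6 and 61.5 at day 6. The rise was 0.68 ± 0.15 (limma adjusted p = 0.00684) and missed the threshold without wild-type replicate 2 at day 6 (adjusted p = 0.0516). The *Pcgf5*-/- samples were at 41.6 and 40.1 and then at 45.0 and 49.6 FPKM, a difference of 0.20 ± 0.15 (adjusted p = 0.340). The interaction was -0.47 ± 0.22 (adjusted p = 0.236). The *Phf10* locus overlaps 2 other annotated genes with levels of 5.53 to 13.5 FPKM, and the strand setting of the counting is not given, so part of its value is uncertain. *Dpf1* (chr7:30089024-30102605) was at 4.91 and 4.79 FPKM in wild type at day 0 and at 4.76 and 4.39 at day 6, and in *Pcgf5*-/- at 4.58 and 6.51 and then at 6.60 and 4.07. It passed no comparison, and its differences lay between -0.07 and 0.16 (limma adjusted p of 0.700 or more). Its mean in wild type was 4.85 ± 0.0802 FPKM at day 0 and 4.58 ± 0.262 at day 6 (SD, n = 2).

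**Figure D3:**
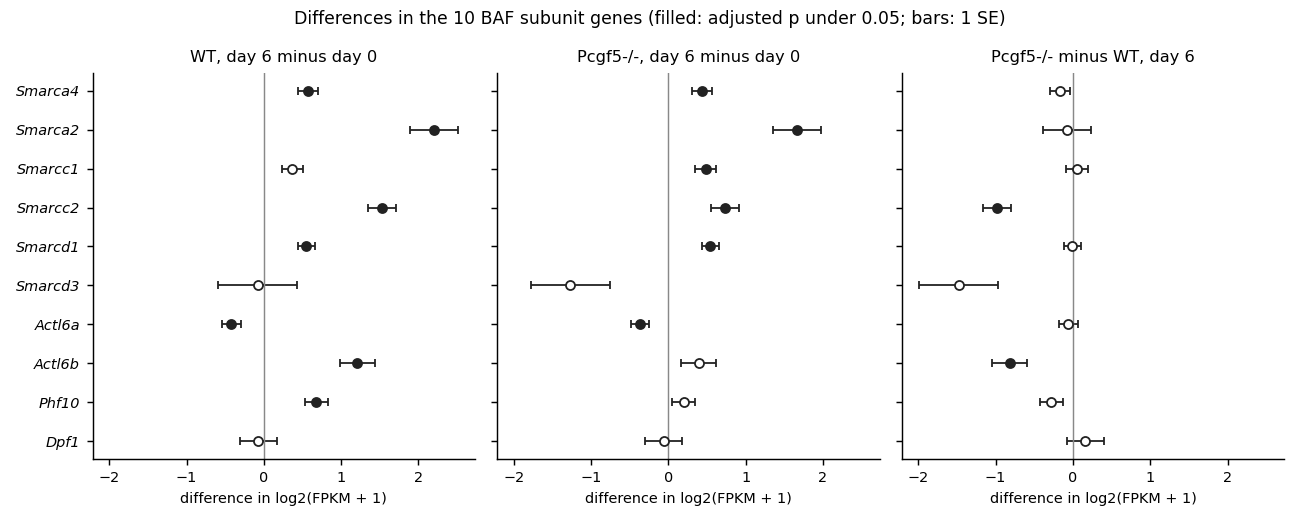
Difference in log2(FPKM + 1) of the 10 genes with 1 SE (bars), for the days in wild type, the days in *Pcgf5*-/- and the genotypes at day 6. Filled points passed limma's adjusted p of 0.05, which were 7 genes, 6 genes and 2 genes, and *Smarcd3* has the widest bars (SE 0.51).

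Without *Pcgf5*, 5 of 10 members rose between the days (*Smarca4*, *Smarca2*, *Smarcc1*, *Smarcc2* and *Smarcd1*), beside 21.9% of all genes tested, and *Actl6a* fell, beside 10.4%. Quantile normalization changed the split of all genes from 2898 up and 1373 down to 1961 and 1734. The 6 calls became 1 without *Pcgf5*-/- replicate 1 at day 0, and 3 when any 1 sample of day 6 was left out. Among the neural forms, 2 of 5 passed in *Pcgf5*-/- and 3 of 5 in wild type. The latter include *Actl6b*, which was tested only because of its level in wild type at day 6. These counts do not show that the genotypes differ, and none of the 10 members passed the interaction in limma, in which 3.09% of all genes tested did. *Smarcc2* and *Actl6b* had an unadjusted limma p under 0.05 in the interaction. The share of all genes at that level was not taken, so this is no result about the members. *Actl6b* was tested only because it was high in wild type at day 6 and so does not bear on the difference. Both day comparisons of a genotype share their samples with the genotype comparisons.

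At day 0 none of the 10 members passed between the genotypes in limma, and 0.333% of all genes tested passed. *Smarca2* was the only member whose *Pcgf5*-/- samples both lay above the wild-type ones at day 0 (0.46 ± 0.31, SE, limma adjusted p = 0.500). With quantile normalization the 38 genes that were higher and 6 that were lower at day 0 became 0 and 3. At day 6, 2 of 10 members were lower in *Pcgf5*-/- (*Smarcc2* and *Actl6b*), beside 7.05% of all genes tested, and none was higher, beside 9.57%. *Actl6b* entered the test only through its level in wild type at day 6, so its call is no support for a difference, and without the filter on low values the count was 1 (*Smarcc2*). Without *Pcgf5*-/- replicate 1 at day 6 no member passed, and 1 passed when any other sample of day 6 or either *Pcgf5*-/- sample of day 0 was left out. Counted by samples, 5 of 10 members (*Smarca4*, *Smarcc2*, *Smarcd3*, *Actl6b* and *Phf10*) had each of the 2 *Pcgf5*-/- values under each of the 2 wild-type values, beside 28.8% of all genes tested. *Smarca4* differed by -0.17 ± 0.13 (limma adjusted p = 0.389) and *Phf10* by -0.28 ± 0.15 (adjusted p = 0.254). The lower neural forms coincided with the lower progenitor and neuron marker sums and the higher pluripotency sums of the same 2 samples, and the part of these in the difference was not tested. The genes of chromosomes 6 and 11 had a median difference between the genotypes of 0.41 and 0.48 at day 0, well above the 0.11 of all genes, and no member lies on either.

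The balance within each pair was taken as the log2 ratio of the neural form to the stem-cell form in each sample, and also as the share of the pair's summed FPKM that the neural form held. *Smarca2* held 1.71% and 0.982% of its pair in wild type at day 0 and 7.05% and 9.05% at day 6, and in *Pcgf5*-/- 2.61% and 2.52% and then 5.76% and 12.1%. The log2 ratio was higher by 1.43 at day 6 over both genotypes (exact two-sided permutation test, p = 0.0286, the smallest that 4 against 4 samples allow), by 1.63 in wild type and by 1.23 in *Pcgf5*-/-. The test exchanged the days over all 8 samples without regard to genotype. All samples of day 6 were above all of day 0.

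*Actl6b* held 3.33% and 1.54% of its pair in wild type at day 6 and 0.837% and 0.361% in *Pcgf5*-/-. Its log2 ratio was higher by 1.19 at day 6 (exact permutation test, p = 0.0286), and as the form was at 0 on day 0, the size depends on the 1 FPKM added to each value. The 2 pairs whose days did not overlap, those of *Smarca2* and *Actl6b*, were also the pairs with the lowest shares on day 0.

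*Smarcc2* held 13.8% and 14.1% of its pair in wild type at day 0 and 26.0% and 29.6% at day 6. The *Pcgf5*-/- samples gave 12.0% and 13.7% and then 12.8% and 18.6%, so that its day 6 samples overlapped the day 0 range. The ratio was higher by 0.71 at day 6 over both genotypes (exact permutation test, p = 0.114), by 1.16 in wild type and by 0.25 in *Pcgf5*-/-. Between the genotypes at day 6 the ratio differed by -1.03 without overlap, a comparison of 2 against 2 samples that cannot go below an exact p of 0.333.

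Taken over both genotypes, the last 2 pairs did not move towards the neural form. *Smarcd3* held 18.7% and 5.11% of its pair in wild type at day 0 and 5.88% and 8.11% at day 6, and in *Pcgf5*-/- 8.22% and 8.70% and then 1.80% in both samples. The ratio differed by -1.22 between the days (exact permutation test, p = 0.0857), by -0.62 in wild type and by -1.82 in *Pcgf5*-/-. In wild type the sign rests on replicate 1 of day 0 (log2 ratio -2.03). Replicate 2 of day 0 (-3.78) lay below both samples of day 6 (-3.73 and -3.33). *Dpf1* held 6.67% to 13.9% of its pair over the 8 samples. Its ratio differed by -0.51 between the days (exact permutation test, p = 0.0857), by -0.75 in wild type and by -0.26 in *Pcgf5*-/-. With quantile normalization both ratios were lower at day 6, each with an exact permutation p = 0.0286. The p-values of the 5 pairs are raw, with no adjustment over the pairs.

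**Figure D4:**
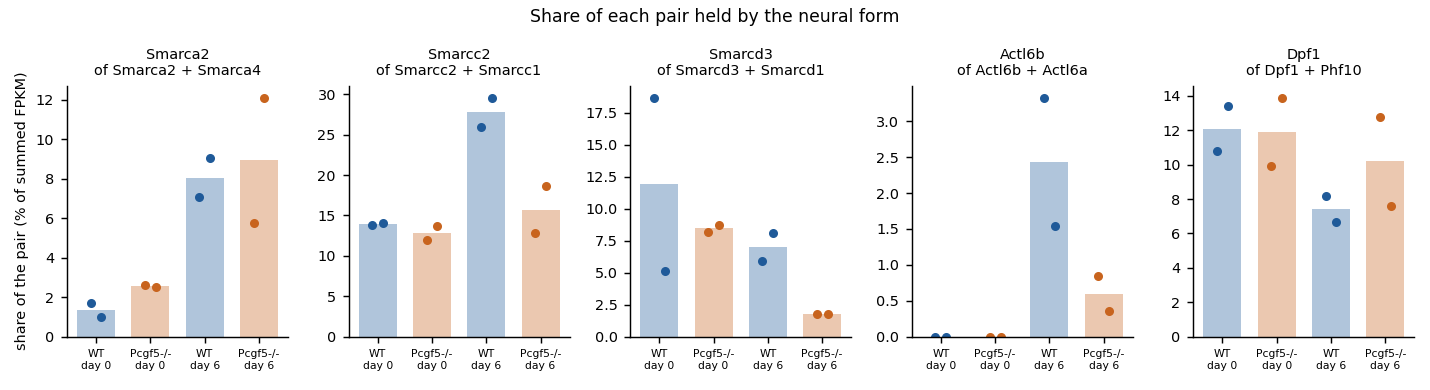
Share of each pair's summed FPKM held by the neural form in each sample (points) and the mean of each condition (bars, from 0), wild type in blue and *Pcgf5*-/- in orange, each panel with its own axis. The neural form holds less than 30% of its pair in every sample, with the highest share, 29.6%, for *Smarcc2* in wild type at day 6.

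Ranked by FPKM in wild type at day 6, the members were *Smarcc1* (82.4 ± 1.85, SD, n = 2), *Smarca4* (78.7 ± 1.82), *Smarcd1* (75.9 ± 4.65), *Phf10* (57.6 ± 5.53), *Actl6a* (54.5 ± 0.591), *Smarcc2* (31.8 ± 3.30), *Smarca2* (6.92 ± 1.48), *Smarcd3* (5.76 ± 1.74), *Dpf1* (4.58 ± 0.262) and *Actl6b* (1.37 ± 0.739). The samples of neighbours overlapped for *Smarca4* and *Smarcd1*, for *Phf10* and *Actl6a*, for *Smarca2* and *Smarcd3* and for *Smarcd3* and *Dpf1*, so their order is not set. Every stem-cell form was above every neural form in both samples. At day 0 *Actl6a* came first in wild type (73.4 ± 7.57), above *Smarcc1* (63.5 ± 1.91).

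The genes most like each neural form were those with the highest Pearson correlation over the 8 samples on the log2(FPKM + 1) scale, a description in which the 2 days set most of the value. For *Smarca2* they were *Gm3383*, *Brd7* and *B230118H07Rik* (each r = 0.996), and *Brd7* itself encodes a subunit of the related PBAF complex. For *Smarcc2* they were *Rprm* (0.993), *Rab15* and *Unc13b* (0.992 each), and for *Actl6b* they were *Lrrtm1*, *Myt1* and *Tmem169* (0.995 each). A correlation over 0.9 was common for these members, reached by 1722, 1502 and 580 genes. For *Smarcd3* the leading genes were *Ndufs5*, *Snap23* (0.973 each) and *Nr4a2* (0.972), with 13 genes over 0.9, and for *Dpf1* they were *Lmtk2* (0.922), *Sycp1* (0.890) and *Has2* (0.883), with 1 gene over 0.9.

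Most other subunits of the complex rose between the days in both genotypes. Of 23 symbols listed for other BAF, PBAF and ncBAF subunit genes, 21 were in the files and 19 were tested. The list gave *Gltscr1* and *Gltscr1l* also under their other symbols, *Bicra* and *Bicral*. In wild type 13 of 19 rose and 2 fell between the days, beside 34.2% and 16.2% of all genes tested. Their median difference was 0.63 against 0.22 over all genes. In *Pcgf5*-/- 12 rose and 1 fell, beside 21.9% and 10.4%, with a median of 0.54 against 0.13. *Bcl7a*, a small subunit shared by BAF complexes, rose most in wild type, from 2.57 ± 0.686 to 18.8 ± 0.0445 FPKM (2.49 ± 0.19, SE, limma adjusted p = 3.93e-05), and by 1.75 in *Pcgf5*-/- (adjusted p = 0.000624). *Bcl11a*, a zinc finger subunit of neural and blood cells, rose from 0.0526 to 1.93 ± 1.47 FPKM in wild type (adjusted p = 0.00880) and from 0.0583 to 4.66 ± 1.24 in *Pcgf5*-/- (adjusted p = 0.00161). *Arid1b*, which like *Arid1a* binds DNA within the complex, rose by 1.23 in wild type (adjusted p = 0.00253) and by 1.09 in *Pcgf5*-/- (adjusted p = 0.00855, and up to 0.0555 without *Pcgf5*-/- replicate 1 of either day). *Gltscr1l*, a subunit of the ncBAF form, fell by 1.96 in wild type (adjusted p = 0.000272) and by 1.14 in *Pcgf5*-/- (adjusted p = 0.00735), and *Actb* fell by 0.31 in wild type (adjusted p = 0.0494). The *Actb* call was lost in 12 of 16 alternatives, and with quantile normalization its difference was -0.04 (adjusted p = 0.816).

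A further exchange of the neuronal complex is that of *Ss18* for *Ss18l1*. *Ss18* was at 52.3 ± 3.43 FPKM at day 0 and 50.2 ± 1.43 at day 6 in wild type (limma adjusted p = 0.731), whereas *Ss18l1* rose from 0.83 and 0.944 to 4.90 and 4.03 FPKM (1.53 ± 0.18, adjusted p = 0.000324). *Ss18l1* went in *Pcgf5*-/- from 0.857 and 1.18 to 2.24 FPKM in both samples (0.69 ± 0.18, limma adjusted p = 0.0237). That call was lost in 4 of 15 alternatives. These were quantile normalization and leaving out *Pcgf5*-/- replicate 1 at day 0 or either *Pcgf5*-/- sample at day 6. *Dpf2*, the broadly expressed relative of *Dpf1*, rose by 0.63 in wild type (adjusted p = 0.00411) and by 0.54 in *Pcgf5*-/- (adjusted p = 0.0151, and up to 0.0828 without *Pcgf5*-/- replicate 1 at day 0 or either *Pcgf5*-/- sample at day 6). *Dpf3*, the other neuronal relative, and *Bcl11b* were too low to be tested, with *Dpf3* at 1.08 and 0.685 FPKM in wild type and 0.479 and 0.288 in *Pcgf5*-/- at day 6.

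Between the genotypes at day 6, 4 of these 19 genes passed, 2 lower beside 7.05% of all genes tested and 2 higher beside 9.57%. At day 0 none did in limma, beside 0.333%. *Bcl7a* (10.3 ± 0.365 against 18.8 ± 0.0445 FPKM in wild type, -0.81 ± 0.19, adjusted p = 0.0274) and *Ss18l1* (-0.75 ± 0.18, adjusted p = 0.0305) were lower in *Pcgf5*-/-. *Gltscr1l* (7.40 ± 2.12 against 3.15 ± 0.889 FPKM, 1.01 ± 0.23, adjusted p = 0.0226) and *Smarcd2* (33.0 ± 3.02 against 18.0 ± 0.463 FPKM, 0.83 ± 0.13, adjusted p = 0.0088) were higher. *Smarcd2*, the relative of *Smarcd1* and *Smarcd3* typical of blood cells, lies on chromosome 11, where the median difference at day 6 was 0.38. Each of these calls was lost at least without wild-type replicate 2 at day 6, and over the alternatives the adjusted p reached 0.136 for *Bcl7a*, 0.126 for *Ss18l1*, 0.135 for *Gltscr1l* and 0.0520 for *Smarcd2*. None of the 19 passed the interaction, beside 3.09% of all genes tested.

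**Figure D5:**
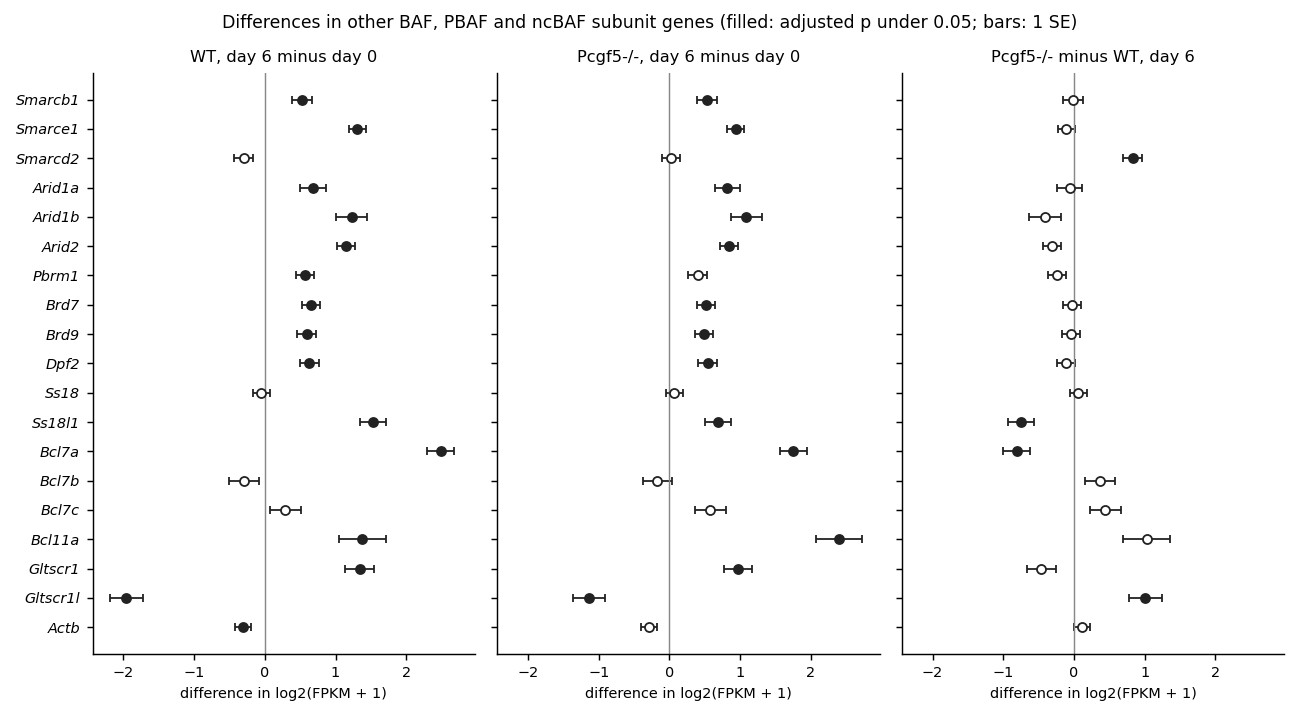
Difference in log2(FPKM + 1) of 19 other BAF, PBAF and ncBAF subunit genes with 1 SE (bars), for the days in wild type, the days in *Pcgf5*-/- and the genotypes at day 6, filled where limma's adjusted p passed 0.05. Most genes lie to the right of 0 in both day comparisons (13 and 12 rose), and *Ss18l1*, *Bcl7a*, *Smarcd2* and *Gltscr1l* are filled between the genotypes.

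*Rest* encodes the repressor that binds RE1. It was at 31.3 and 31.5 FPKM in wild type at day 0 and at 12.2 and 6.94 at day 6, and in *Pcgf5*-/- at 20.3 and 22.6 and then at 29.1 and 11.8. It fell by 1.66 ± 0.38 in wild type (limma adjusted p = 0.00674, and 0.0511 without wild-type replicate 2 at day 6). The difference in *Pcgf5*-/- was -0.19 ± 0.38 (adjusted p = 0.729), and the 2 samples of day 6 lay on either side of the day 0 level. The interaction, 1.47 ± 0.53, missed the threshold (adjusted p = 0.153), and so did the difference between the genotypes at day 6, 0.94 (adjusted p = 0.123). With the replicate number of each day as a block both passed (adjusted p = 0.0245 and 0.012), and the latter also passed without *Pcgf5*-/- replicate 2 at day 6. Of *Rest* and 10 co-factors, 3 rose and 3 fell in wild type, beside 34.2% and 16.2% of all genes tested, with a median of -0.08 against 0.22 over all genes, and 2 rose in *Pcgf5*-/-, beside 21.9%. These shares are too near those of all genes to be a result about the list. In wild type *Ctdspl* (2.35), *Rcor3* (1.13) and *Rcor2* (0.72) rose, and the histone deacetylase *Hdac1* and the demethylase *Kdm1a* fell by 0.55 and 0.36 (adjusted p between 6.63e-05 and 0.0337). The *Kdm1a* call was lost in 8 of 16 alternatives, quantile normalization and either wild-type sample of day 0 among them (adjusted p up to 0.2), and that of *Rcor2* without wild-type replicate 1 of either day (adjusted p up to 0.0766). In *Pcgf5*-/- *Ctdspl* (0.95) and *Rcor3* (0.89) rose (limma adjusted p = 0.00973 and 0.0168). The call of *Ctdspl* was lost in 2 of 16 alternatives, without *Pcgf5*-/- replicate 1 at day 0 and without replicate 2 at day 6. That of *Rcor3* was lost in 3 of 15.

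*Ctdspl*, a small phosphatase that acts with REST, was at 6.81 and 7.59 FPKM in wild type and at 2.91 and 3.10 in *Pcgf5*-/- at day 6, a difference of -1.03 ± 0.20 (limma adjusted p = 0.0150, and up to 0.0831 without wild-type replicate 2 or either *Pcgf5*-/- sample at day 6). At the same day *Hdac2* was lower by -0.47 ± 0.13 in *Pcgf5*-/- (limma adjusted p = 0.0425) and *Sin3a* higher by 0.48 ± 0.12 (adjusted p = 0.0336). Both calls were lost when any 1 sample of day 6 was left out. The *Hdac2* call was lost in 11 of 16 alternatives, every fit without 1 sample of either day among them. The *Sin3a* call was lost in 8 of 16. The host transcript *Mir124a-1hg* was at 1.75 and 0.176 FPKM in wild type at day 0 and at 4.51 and 2.67 at day 6, a rise of 1.32 ± 0.38 (adjusted p = 0.02), and in *Pcgf5*-/- at 0.992 and 1.36 and then 1.27 and 0.963 (adjusted p = 0.948). Its wild-type samples of day 0 lay far apart (0.963 ± 1.11, SD), and its call was not followed over the alternatives.

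The ATPases of other Snf2 family remodellers gave a comparison for *Smarca4* and *Smarca2*. Of 18 listed genes 17 were tested, and 5 rose and 2 fell in wild type, beside 34.2% and 16.2% of all genes tested, which is no result about the family, with a median of 0.08 against 0.22 over all genes. *Chd7*, the CHARGE syndrome gene with a role in neural progenitors, rose from 3.95 ± 0.0138 to 36.5 ± 0.63 FPKM (2.92 ± 0.20, limma adjusted p = 2.11e-05), *Chd3* by 1.54 and *Smarca1* by 1.20 (adjusted p = 0.00306 and 0.00209). *Hells*, a remodeller of dividing cells, fell by 0.96 and *Ino80* by 0.89 (adjusted p = 0.00124 and 0.00894, the latter up to 0.0659 without wild-type replicate 2 of either day). In *Pcgf5*-/- 5 rose and none fell, beside 21.9% and 10.4%, led by *Chd7* (1.88), *Chd9* (1.22) and *Chd6* (1.18), with adjusted p between 0.000491 and 0.0340. The *Chd9* call was lost in 5 of 16 alternatives, quantile normalization and either *Pcgf5*-/- sample of day 0 among them, and without *Pcgf5*-/- replicate 1 at day 6 the difference was 0.71 (adjusted p = 0.182). *Hells* was the only one of the 17 that passed between the genotypes at day 6, higher in *Pcgf5*-/- by 0.67 ± 0.15 (adjusted p = 0.0236, and 0.0105 to 0.141 over the alternatives).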

How the data were processed

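PolyA RNA of 8 samples (2 in each of 4 conditions, labels giving genotype, day and replicate) was analysed. The authors removed adapters, low-quality ends, short reads and identical duplicate reads, aligned the paired-end reads to mm9 with TopHat2 2.0.4 and computed FPKM per gene with Cufflinks 2.1.1, as the methods and the submitters' processing notes state; the annotation is not given in the sources used here. The deposited FPKM are scaled for depth and length, so no count test was used. Of the 245 values above 0 of single-exon receptor genes, 72.2% lay within 2% of whole multiples of a step, which gave the approximate depth.

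The members and gene lists were chosen with earlier results of these data known. Genes named beside the members were those of the lists that passed in a genotype comparison, the 3 largest rises and falls per list and day comparison, and a few set by name. Genes with a mean over 1 FPKM in at least 1 condition (13214) entered a linear model of log2(FPKM + 1) with 1 coefficient for each condition and moderated variances that follow expression (limma 3.58.1, R 4.3.3), and p-values were adjusted by Benjamini-Hochberg over all genes. A fold change on this scale understates the change of low genes. The fit was tested on simulated data. Pair ratios were tested by exact permutation of the days over all 8 samples, without keeping the genotypes apart (SciPy 1.17.1). Alternatives were a pseudocount of 0.1, other filters (none, or a mean over 5 FPKM), quantile normalization, replicate blocks, only the compared groups, no variance trend and leaving out each sample. Replicates came from cultures the series calls biological, and p-values measure the spread between these.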

Additional observations from a re-analysis of the deposited data

Results flagged for a closer look

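Of the REST list, *Ctdspl* passed the test of a different response to differentiation between the genotypes, and no member did. For *Ctdspl* the interaction of genotype and day was -1.39 on the log2(FPKM + 1) scale (limma adjusted p = 0.0463). The rise was 2.35 in wild type and 0.95 in *Pcgf5*-/-, each with 2 of 2 samples above both samples of day 0. The interaction call was lost in 11 of 15 alternatives, among them a pseudocount of 0.1, no filter on low values and a replicate block. Over the alternatives the difference lay between -1.94 and -1.20. For *Sin3a* both wild-type samples of day 6 lay below those of day 0 and both *Pcgf5*-/- samples lay above, and the difference of 0.49 did not pass limma's interaction (adjusted p = 0.152); the opposite order of the samples itself was not tested.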

How the results depend on the processing

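Of 780 values of single members under an alternative, 722 stayed on their side of the threshold without a called direction turning, 43 lost a call, 14 gained one and 1 reversed, and of 1960 values of other named genes 1832 were the same, 103 lost a call and 25 gained one. The reversed value was *Smarcd3* between the days in wild type, 0.86 without wild-type replicate 1 at day 0 and -1.01 without replicate 2. The number of members past the threshold in *Pcgf5*-/- between the days was 6, and 3 without the variance trend, and leaving out 1 sample gave 1 to 7. Between the genotypes at day 6 it was 2, and 1 with a pseudocount of 0.1, without a filter on low values or with a mean over 5 FPKM (*Actl6b* is then not tested), and 0 to 2 when 1 sample was left out. The interaction held 0 members, and 0 to 1 when 1 sample was left out. The log2 ratios of *Smarcd3* and *Dpf1* to their partners were lower by -1.63 and -0.90 with quantile normalization, past the threshold. Over all genes the interaction held 408 calls, against 86 without a filter and 4 without *Pcgf5*-/- replicate 1 at day 6, and the genotypes at day 6 held 2197, against 334 without that sample; genes called at day 0 numbered 44, against 0 in the fit of only the compared groups. The cause was not tested. Deviations of same-numbered samples correlated at 0.39 at day 6, 0.10 at day 0 and -0.08 to -0.02 between the days, so the numbers were not taken as pairs, and with a replicate block 7, 6, 0, 2 and 0 members passed in the 5 comparisons. With the replicate number of each day as a block these counts were 8, 6, 0, 2 and 0, and over all genes the interaction held 1167 calls, the genotypes at day 6 3235 and those at day 0 282. Depth limits *Actl6b*, at under 50 fragments per sample, most.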
